A study of Homo sapiens with 20 samples.

Results

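The 9 genes described here, DLK1, PEG3, PEG10, NNAT, NDN, MAGEL2, MEST, GRB10 and PLAGL1, are imprinted genes known for roles in growth or in the nervous system, and they were chosen by name and not by their values. All 9 were found among 20237 coding gene records of 38369 records in all, each symbol in 1 coding record, and all 9 had a mean of at least 1 FPKM (fragments counted per length of transcript and per number of mapped fragments) over the days, as did 11793 coding records. Polyadenylated RNA of neural progenitors made from the established human embryonic stem cell line H1 had been sequenced over a time course of neuronal differentiation, which asks how expression moves as progenitors become neurons. The day 0 cultures grew with FGF, a factor that keeps progenitors dividing, and at every later day the cultures had been without FGF and with BDNF, a neurotrophic factor. There were 3 samples at each of days 0, 1, 2, 4, 11 and 18 and 2 at day 5, 20 in all. All cells came from 1 line with no further genetic change, those of days 0, 1, 2 and 4 grew on Matrigel, and those of days 5, 11 and 18 had been replated at day 4 on poly-D-lysine and laminin, so the time after day 4 and the new surface cannot be told apart.

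At an imprinted gene the copy inherited from one parent is transcribed and the copy from the other parent is held silent, as a rule by DNA methylation laid down in the egg or sperm at a nearby control region. Imprinted genes often lie in clusters that share such a region, and many of them set fetal growth, the size of stem cell pools or the behaviour of neurons. In most tissues DLK1, PEG3, PEG10, NNAT, NDN, MAGEL2, MEST and PLAGL1 are transcribed from the paternal copy. At GRB10 the copy that is transcribed differs between tissues, and in neurons it is the paternal copy, through separate promoters. The RNA measured here was the sum of both copies, so imprinting itself was not measured.

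The deposited table holds 1 value per record and day, for which the authors drew on every culture of that day. No value of a single sample, no replicate spread and no read depth could therefore be set beside any difference, and every difference below is a description with no test. Changes are given on the log2(FPKM + 0.1) scale, day 18 minus day 0 or later minus earlier day, less the median change found over 14443 records that averaged at least 1 FPKM. That median was -0.56 from day 0 to day 18 in the values as deposited, and the deposited change is given beside the relative one where the scale matters. A change is counted when it is at least 2-fold relative to the median.

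Sequence just upstream of NDN is shown because NDN was the gene whose level varied least over the days and because its start is rich in CpG, the dinucleotide at which imprints are methylated. Its record begins close to the gene start of the GENCODE annotation. The sequence is from GRCh37, the build of the deposited coordinates, at chr15:23932451-23932700, minus strand (250 bases), written 5' to 3' on the strand of NDN and ending at the base before the start of its record, with each CpG in capitals. No exon of any deposited record lies inside it.
NDN: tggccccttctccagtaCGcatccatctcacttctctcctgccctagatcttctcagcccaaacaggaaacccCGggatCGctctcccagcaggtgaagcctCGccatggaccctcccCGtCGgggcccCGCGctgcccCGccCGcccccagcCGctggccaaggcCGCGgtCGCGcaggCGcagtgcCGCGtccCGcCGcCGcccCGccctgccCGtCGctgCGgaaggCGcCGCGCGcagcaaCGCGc

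This stretch holds 31 CpG, against a median of 16 over the 19272 such windows of coding records, and at least 31 were found in 13.5% of all windows. The CpG count is a description of the reference letters, and methylation was not measured.

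By day 18 the 9 genes had parted into 3 groups. NNAT, MAGEL2 and PEG3 were at least 2-fold higher relative to the median, MEST and PLAGL1 were at least 2-fold lower, and NDN, DLK1, GRB10 and PEG10 lay between. As deposited, PEG10 and GRB10 were 2-fold lower as well, giving 3 higher and 4 lower. Of all coding records with a mean of at least 1 FPKM, 13.9% were at least 2-fold higher and 12.8% at least 2-fold lower on the same scale. The median relative change of the 9 genes was -0.01, with 4 above and 5 below the median record, beside -0.04 for coding records. The set as a whole therefore lay at the centre of all genes while its members spanned from -1.66 to 2.11.

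**Figure D1:**
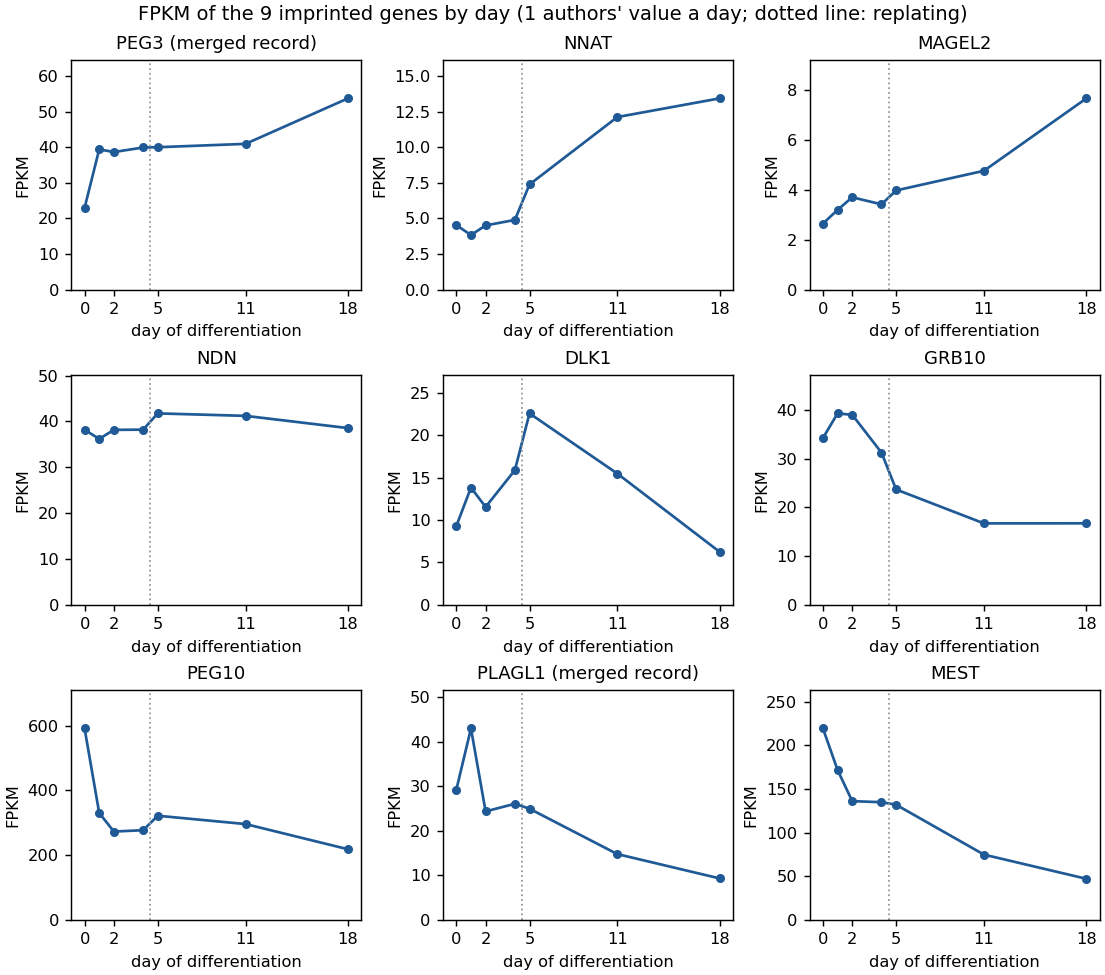
FPKM of each of the 9 genes (vertical axes, linear from 0, a separate scale per gene) against the day of differentiation, with 1 point per day for the authors' value over that day's samples, no error bars, and a dotted line for the replating. PEG3, NNAT and MAGEL2 end highest, MEST ends lowest after a decline at every step, and DLK1 peaks at day 5 with 22.6 FPKM.

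NNAT encodes neuronatin, a small proteolipid of the endoplasmic reticulum in developing neurons and endocrine cells. Its record lies at chr20:36149607-36152088 on the plus strand, within the span of BLCAP on the other strand. NNAT stood at 4.53 FPKM on day 0, 3.83, 4.51 and 4.89 on days 1, 2 and 4, and 7.38, 12.1 and 13.4 on days 5, 11 and 18. The first 4 days lay within a narrow band, and every later day lay above all of them. The relative change to day 18 was 2.11 (1.55 as deposited), and among the coding records its level moved from the percentile 22.7 to the percentile 68.1. Between days 5 and 11 the relative change was 0.86, the largest of any step for NNAT, and between days 4 and 5 it was 0.65.

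MAGEL2 and NDN are neighbours in the Prader-Willi region, where loss of the paternal copies causes a syndrome of poor feeding at birth and later overeating. MAGEL2 encodes a MAGE-family partner of a ubiquitin ligase that acts in endosomal protein recycling, and its record lies at chr15:23888698-23891175 on the minus strand. MAGEL2 stood at 2.64 FPKM on day 0, 3.19, 3.70 and 3.42 on days 1, 2 and 4, and 3.97, 4.76 and 7.66 on days 5, 11 and 18. Day 18 stood apart from the other days, 2.90-fold above day 0, and the relative change was 2.06 (1.5 as deposited). The record begins 1839 bases downstream of the GENCODE start of MAGEL2 and so lacks its 5' part.

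NDN encodes necdin, a MAGE-family protein of postmitotic neurons that binds E2F1 and restrains division. Its record lies at chr15:23930562-23932450 on the minus strand, 39386 bases from that of MAGEL2. NDN stood at 38.2 FPKM on day 0, 36.2, 38.2 and 38.2 on days 1, 2 and 4, and 41.8, 41.2 and 38.6 on days 5, 11 and 18. The highest day was 1.15-fold above the lowest, the smallest span of the 9 genes. Its relative change was 0.57 (0.01 as deposited), and among coding records it moved from the percentile 83.2 to 91.5.

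These neighbours did not keep a fixed proportion. The ratio of NDN to MAGEL2 FPKM went from 14.4 on day 0 to 8.66 by day 11 and 5.03 by day 18, and the Pearson correlation of their log2 levels was 0.31 over the 7 days. Of the other genes of the region, MKRN3, which encodes a zinc-finger ubiquitin ligase, stood at 1.94, 6.58 and 4.65 FPKM on days 0, 11 and 18, a relative change of 1.78. The record of SNRPN and SNURF, which encode a splicing protein and a peptide made from the same transcript, stood at 157 and 114 FPKM on the first and last day, a relative change of 0.10. UBE3A, a ubiquitin ligase gene transcribed from the maternal copy in neurons, stood at 29.6 and 16.8 FPKM, a relative change of -0.26.

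PEG3 encodes a large zinc-finger protein that binds DNA and takes part in growth control and maternal behaviour in mice. Its record also carries ZIM2, a gene that shares its first exons, so the level is that of both together, and it lies at chr19:57285923-57352097 on the minus strand with 12 transcripts. The PEG3 record stood at 23.0 FPKM on day 0, 39.4, 38.7 and 40.0 on days 1, 2 and 4, and 40.0, 41.0 and 53.8 on days 5, 11 and 18. The level thus stepped up at day 1, lay between 38.7 and 41.0 FPKM up to day 11 and was highest at day 18. Its relative change was 1.78 over the course (1.22 as deposited), of which the first day made 0.87, and 2.34-fold separated day 18 from day 0. ZNF264, a zinc-finger gene in the same stretch of chromosome 19, stood at 2.52 FPKM at day 0 and 4.03 at day 18, a relative change of 1.22.

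DLK1 encodes a transmembrane ligand of the Notch family with EGF-like repeats, which restrains the differentiation of fat cells and other precursors. Its record lies at chr14:101193253-101201474 on the plus strand. DLK1 stood at 9.28 FPKM on day 0, 13.8, 11.5 and 15.9 on days 1, 2 and 4, and 22.6, 15.5 and 6.22 on days 5, 11 and 18. The level was highest at day 5 and lowest at day 18, and a comparison of the end points alone gave a relative change of -0.01 (-0.57 as deposited). Relative to day 0 it reached 1.40 at day 5. Day 5 was 3.63-fold above day 18, and the step from day 11 to day 18 was -1.03.

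The coding record found for MEG3, the maternally expressed partner of DLK1, was very low throughout. MEG3 is a noncoding RNA gene, and all listed genes were looked up among coding records only. Whether noncoding records hold further reads of MEG3 was not examined. The record found lies 90970 bases from that of DLK1 and stood at 0.136 FPKM or less on every day. RTL1, a retrotransposon-derived gene of the same cluster, lay between 0.079 and 0.374 FPKM. Among the flanking genes, WDR25 stood at 5.17 and 4.56 FPKM on the first and last day, a relative change of 0.38, and BEGAIN, which encodes a protein of the postsynaptic density, at 0.513 and 3.77 FPKM, a relative change of 3.22. BEGAIN was higher on each day sampled than on the one before, whereas DLK1 was lower at day 2 than at day 1 and lower again after day 5. The end points of WDR25 hide a rise to 7.98 FPKM at day 4, with 7.41 at day 5 and 4.74 at day 11. In WDR25 as in DLK1, days 1 to 5 lay above both the first and the last day.

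GRB10 encodes an adaptor protein that binds the insulin and IGF1 receptors and dampens their signal. Its record lies at chr7:50657760-50861159 on the minus strand with 6 transcripts from 4 groups of start sites, which the single value does not keep apart. GRB10 stood at 34.3 FPKM on day 0, 39.3, 39.0 and 31.3 on days 1, 2 and 4, and 23.7, 16.7 and 16.7 on days 5, 11 and 18. All days up to day 4 lay above all later days. The change was -1.03 as deposited but -0.47 relative to the median, so it was not counted as 2-fold lower on the relative scale.

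The 10 genes of insulin and IGF signalling listed beside it differed in direction. Of the 9 with a mean of at least 1 FPKM, 2 were at least 2-fold higher and 2 at least 2-fold lower relative to the median, and the median change was -0.28. As deposited 1 was higher and 4 were lower, with a median of -0.84. INSR, the insulin receptor gene, stood at 0.371 FPKM at day 0 and 2.59 at day 18 (3.07), and FOXO3, a transcription factor gene downstream of the pathway, at 3.84 and 6.26 FPKM (1.25). FOXO1, its relative, stood at 7.26 and 1.06 FPKM (-2.10), and IRS1, which encodes a substrate of the receptors, at 21.1 and 5.44 FPKM (-1.38). The record of IGF2 and INS is listed at 0 on every day, which in such files can be a failed estimate.

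PEG10 derives from a retrotransposon and encodes gag-like and pol-like proteins needed for placental growth, the second of them by a ribosomal frameshift. Its record lies at chr7:94285637-94299004 on the plus strand. PEG10 stood at 591 FPKM on day 0, 330, 273 and 277 on days 1, 2 and 4, and 321, 296 and 218 on days 5, 11 and 18. Most of the difference came in the first day (-0.75 relative to the median), and the 5 days from day 1 to day 11 spanned 273 to 330 FPKM. PEG10 was first of the 9 in level on every day, at the percentile 99.7 of coding records at day 0 and still at 99.2 at day 18. Its change of -0.88 relative to the median (-1.44 as deposited) was not counted as 2-fold.

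SGCE, the sarcoglycan gene beside PEG10 on the other strand, is transcribed from the paternal copy as well. SGCE stood at 34.3 FPKM on day 0, 26.9, 27.6 and 26.8 on days 1, 2 and 4, and 26.7, 18.1 and 13.3 on days 5, 11 and 18. Its relative change of -0.80 lay close to that of PEG10, although the largest part of it came after day 5. The genes farther out differed from both. PPP1R9A, which encodes a neuronal actin-binding protein, had a relative change of 0.47 (5.11 and 4.79 FPKM), CASD1, a sialic acid acetyltransferase gene, 0.23 (19.5 and 15.5 FPKM), and TFPI2, a protease inhibitor gene, -5.78 (160 and 1.88 FPKM).

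MEST encodes a protein of the alpha/beta hydrolase fold that is abundant in mesoderm and in growing embryonic tissue. Its record lies at chr7:130126046-130146129 on the plus strand with 6 transcripts from 3 groups of start sites. MEST stood at 219 FPKM on day 0, 172, 136 and 135 on days 1, 2 and 4, and 132, 74.7 and 46.9 on days 5, 11 and 18. It was lower on each day sampled than on the one before, ended 4.67-fold below day 0 and had the lowest relative change of the 9 genes (-1.66, and -2.22 as deposited). It was nonetheless at the percentile 93.4 of coding records at day 18. Neither flanking gene shared this pattern, with COPG2, a coatomer gene, at 22.1 and 17.8 FPKM (0.25) and TSGA14, a centrosomal gene, at 6.92 and 6.56 FPKM (0.48) on the first and last day.

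PLAGL1, also named ZAC1, encodes a zinc-finger transcription factor that halts the cell cycle and acts on other imprinted genes. Its record also carries HYMAI, an imprinted noncoding RNA of the same promoter, and lies at chr6:144261439-144385735 on the minus strand with 25 transcripts. The PLAGL1 record stood at 29.2 FPKM on day 0, 43.0, 24.4 and 26.1 on days 1, 2 and 4, and 25.0, 14.8 and 9.28 on days 5, 11 and 18. Day 1 stood above all other days, days 2 to 5 lay close together, and the last 2 sampled days were lowest. The relative change over the course was -1.09 (-1.64 as deposited), and it was -0.92 and no longer 2-fold when centred on coding records with a mean of at least 10 FPKM, while the first step was 0.65 and the second -0.86. Of its neighbours, LTV1, which acts in ribosome assembly and is in a record merged with C6orf94, stood at 31.0 and 7.78 FPKM (-1.42), PHACTR2, an actin and phosphatase regulator gene, at 2.69 and 0.885 FPKM (-0.94), and SF3B5, a splicing factor gene, at 99.2 and 53.6 FPKM (-0.33).

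**Figure D2:**
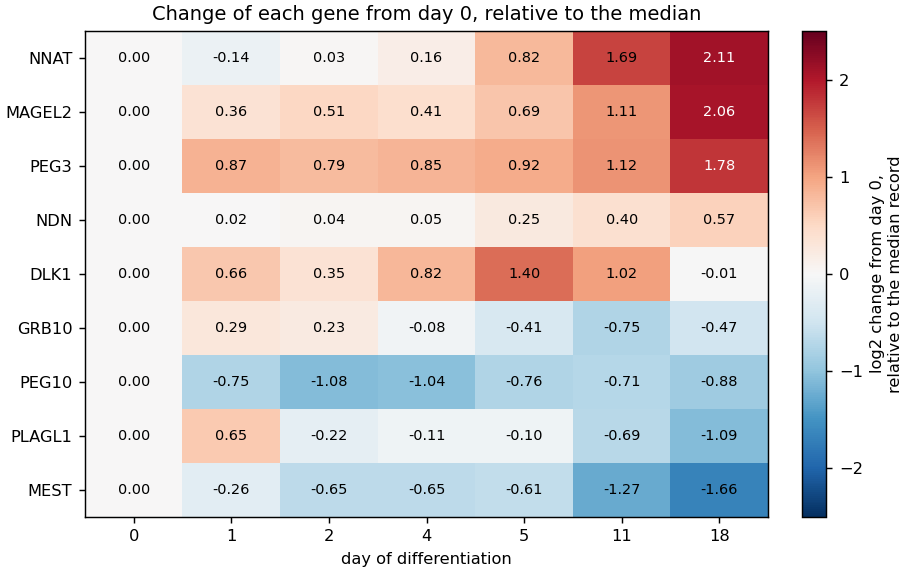
Change of each of the 9 genes (rows, ordered by day 18) from day 0 to each later day (columns), as the difference of log2(FPKM + 0.1) relative to the median of all records with a mean of at least 1 FPKM, with red for higher, blue for lower and the value printed in each cell. PEG3 and PEG10 are at 0.87 and -0.75 by day 1, whereas NNAT is at 0.16 on day 4 and 2.11 on day 18.

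Hardly any of these genes passed 2-fold within a single step. From day 0 to day 1, when 4.51% of coding records were at least 2-fold higher and 2.21% at least 2-fold lower, 0 of the 9 were in either class, and PEG3 (0.87) and PEG10 (-0.75) were farthest from the median. From day 1 to day 2 (0.11% and 0.161% of coding records) and from day 2 to day 4 (0.127% and 0.67%) the count was again 0, with PLAGL1 (-0.86) and DLK1 (0.45) farthest. From day 4 to day 5, across the replating, the background was 0.373% higher and 0.0424% lower and the count 0. On that step 8 of the 9 genes lay above the median record, all but GRB10 (-0.33), against 49.1% of coding records. Of the 8, PLAGL1 (0.01), MEST (0.04) and PEG3 (0.07) lay close to the median record. As deposited PLAGL1 (-0.06) and MEST (-0.03) were lower at day 5, as was GRB10 (-0.40), and PEG3 was level (0.003). From day 5 to day 11 (2.61% and 3.11%) the count was 0, with NNAT at 0.86 and MEST at -0.67. From day 11 to day 18 (1.83% and 1.4%) DLK1 was 2-fold lower and none was 2-fold higher, with MAGEL2 (0.95) next in size.

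The order of levels by FPKM began as PEG10, MEST, NDN, GRB10, PLAGL1, PEG3, DLK1, NNAT and MAGEL2. At day 18 it was PEG10, PEG3, MEST, NDN, GRB10, NNAT, PLAGL1, MAGEL2 and DLK1, with PEG3 now above MEST and DLK1 last. MEST exceeded PEG3 9.54-fold on the first day, with a ratio of 0.873 on the last, and the ratio of PEG10 to PEG3 went from 25.7 to 4.05. Summed over the 9 genes the level was 952 FPKM at day 0 and 410 at day 18, of which PEG10 made 62.1% and 53.1% and MEST 23.1% and 11.4%. The sum over all records was lower at day 18 as well, at 413978 FPKM on day 0 and 251156 on day 18. With no spread between cultures, whether neighbours in this order differ could not be tested.

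Across the 7 days the log2 levels of several members ran in opposite directions. The Pearson correlation was -0.99 for NNAT with GRB10, -0.98 for MAGEL2 with MEST and -0.97 for PEG3 with PEG10, and it was 0.93 for MEST with PLAGL1 and 0.88 for NNAT with MAGEL2. These are descriptions over 7 points of 1 time course, in which any pair of genes that moves steadily is correlated. All correlations given here were taken on levels as deposited, without taking off the median. The fall of the median record (-0.56 from day 0 to day 18) is therefore part of them, as it is of the rankings that follow. The genes closest in pattern, among 3689 coding records with a mean of at least 5 FPKM and a span of at least 1 on the log2 scale, were NRG1 (0.999), IGSF3 (0.997) and WDR47 (0.995) for NNAT and ZNF697 (0.991) and ENO2 (0.983) for MAGEL2. For PEG3 they were ARRDC4 (0.975), EEF1A2 (0.968) and HIST3H2A (0.961). For DLK1 they were IFI6 (0.917) and C11orf1 (0.904), and only 4 records passed 0.9, whereas 2051 did so for MEST.

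For MEST the closest were PCGF5 (0.997), SMARCD2 (0.995) and CCDC59 (0.995), for GRB10 MRC2, SLC38A2 and POLR3D (0.991 each), and for PLAGL1 ENOSF1 (0.969), MED20 (0.968) and CPVL (0.965). For PEG10 they were TMSL3 (0.991), LPCAT1 (0.988) and CORO1C (0.984), of which TMSL3 is a near copy of a thymosin gene and may share its reads. NDN spanned only 0.21 on the log2 scale and was not ranked.

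Several of these genes lie across from a record on the other strand, and the counting is not stated to have used strand, so reads of the shared bases cannot be assigned to one gene. Exons of linc-ZIM2-AS cover 74.4% of the exon bases of the PEG3 record (7758 bases), those of linc-PLAGL1-AS 53.7% of PLAGL1 (5654 bases), those of linc-GRB10-AS 52.8% of GRB10 (3281 bases) and those of linc-DLK1-AS 12.9% of DLK1 (199 bases). The antisense records were far lower than the genes. On days 0 and 18 linc-ZIM2-AS stood at 0.947 and 3.14 FPKM, linc-PLAGL1-AS at 3.91 and 1.32, linc-GRB10-AS at 3.08 and 1.46, and linc-DLK1-AS, which also peaked at day 5 with 2.61 FPKM, at 0.989 and 0.611. The Pearson correlation of gene and antisense record over the 7 days was 0.84 for PEG3, 0.93 for PLAGL1, 0.97 for GRB10 and 0.94 for DLK1.

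The host gene of NNAT differed in this respect. BLCAP, a gene lost in some bladder cancers, shares 27 exon bases with NNAT (2.08% of them) and stood at 22.2 FPKM on day 0, 24.0, 24.8 and 26.4 on days 1, 2 and 4, and 32.8, 48.9 and 75.9 on days 5, 11 and 18. Both genes were thus higher from day 5 on than on the earlier days, with relative changes of 2.33 and 2.11 and a correlation of 0.96, over nearly separate exons. The record of COPG2 shares 50 exon bases with MEST (1.78%), and PEG10, NDN and MAGEL2 share none with any record on the other strand.

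**Figure D3:**
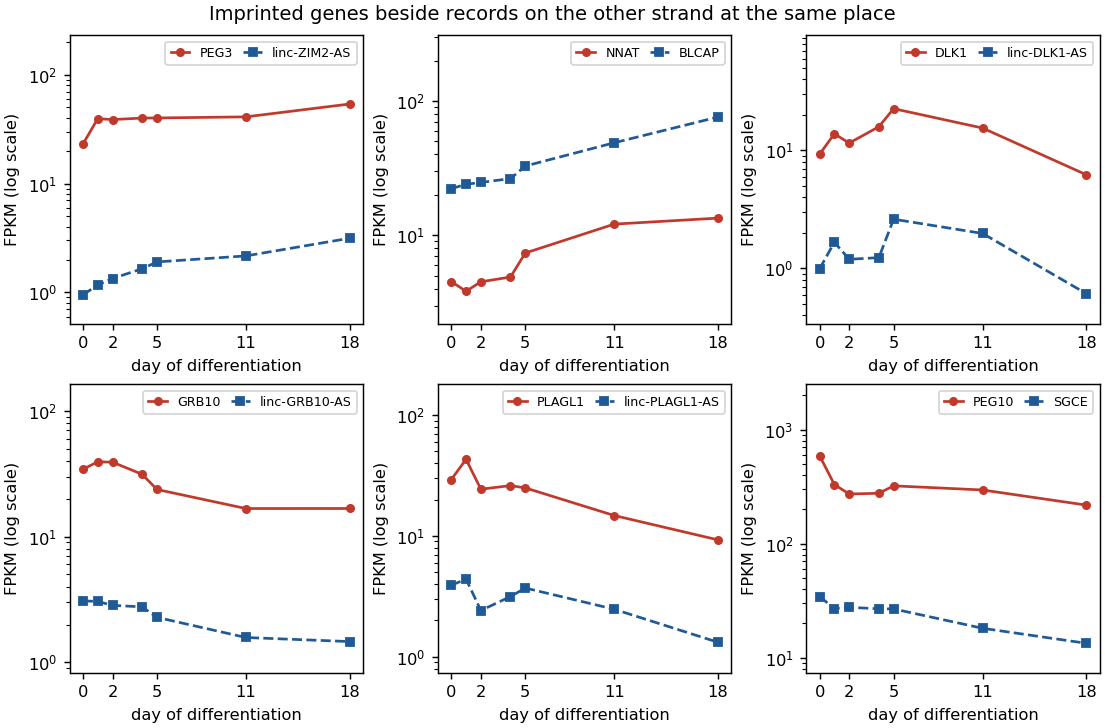
FPKM by day, on log axes, of 6 of the genes (red, solid) and of a record on the other strand (blue, dashed), with 1 authors' value per day and no error bars. The first 5 pairs share exon bases, from 27 (NNAT and BLCAP) to 7758 (PEG3 and linc-ZIM2-AS), and PEG10 and SGCE share none.

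Other imprinted genes were divided as well. Of 15 further genes known as paternally expressed, 9 had a mean of at least 1 FPKM, of which 5 were at least 2-fold higher and 0 at least 2-fold lower relative to the median, with a median change of 1.18. In the values as deposited 3 were higher and 2 lower (SGCE and DIRAS3), with a median of 0.62, so the one-sided count rests on the centring. One of the 5 is ZIM2, which has the same record as PEG3 (1.78) and is thus no separate case. The medians given include it. Without it the relative median would lie between 0.10 and 1.18, the middle values of the records left. NAP1L5, a nucleosome assembly protein gene, stood at 4.63 FPKM at day 0 and 13.4 at day 18 (2.07), and MKRN3 is described above. DIRAS3, a Ras-related growth suppressor gene, stood at 2.34 and 0.870 FPKM (-0.77), beside SGCE at -0.80.

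Of 15 genes known as maternally expressed, 7 had a mean of at least 1 FPKM, of which 1 was at least 2-fold higher and 1 at least 2-fold lower, with a median of -0.05 (1 and 1 as deposited, with a median of -0.61). The filter on the mean left out genes that were low and fell further. H19 stood at 2.20 and 0.069 FPKM on the first and last day (-3.21), ATP10A at 0.719 and 0.031 (-2.08) and CPA4 at 0.830 and 0.121 (-1.51). None of the genes left out was 2-fold higher. CDKN1C, a cyclin-dependent kinase inhibitor gene, stood at 8.22 FPKM at day 0, 49.4 at day 11 and 28.4 at day 18 (2.33). PHLDA2, a gene of the same cluster on chromosome 11 that limits placental growth, stood at 20.5 and 0.436 FPKM on the first and last day (-4.71). Of the 7 that passed the filter, SLC22A18 was second among those higher than the median (0.82, 1.28 and 1.55 FPKM), and UBE3A second among those lower. Of the 25 cluster neighbours 17 had a mean of at least 1 FPKM, of which 5 were 2-fold higher and 2 lower, with a median of 0.25, ZIM2 again among them through the PEG3 record. As deposited 4 were higher and 4 lower and the median was below 0, at -0.31.

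Relatives of the 9 genes by family, 20 in all, had 14 with a mean of at least 1 FPKM, of which 4 were at least 2-fold higher, 0 at least 2-fold lower, and the median was 0.33. As deposited 2 were higher and 1 lower and the median took the other sign, at -0.23. GRB14, an adaptor gene related to GRB10, stood at 0.939 FPKM at day 0 and 5.26 at day 18 (2.93), opposite in direction to GRB10. MAGEE1, a MAGE-family gene like MAGEL2 and NDN, stood at 1.44 and 4.08 FPKM (2.00). PLAGL2, a relative of PLAGL1, stood at 15.9 and 7.04 FPKM (-0.61), and FAM127C, a retrotransposon-derived gene like PEG10, at 15.8 and 8.30 FPKM (-0.36). FAM127C has near copies, so its reads may be split among them.

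**Figure D4:**
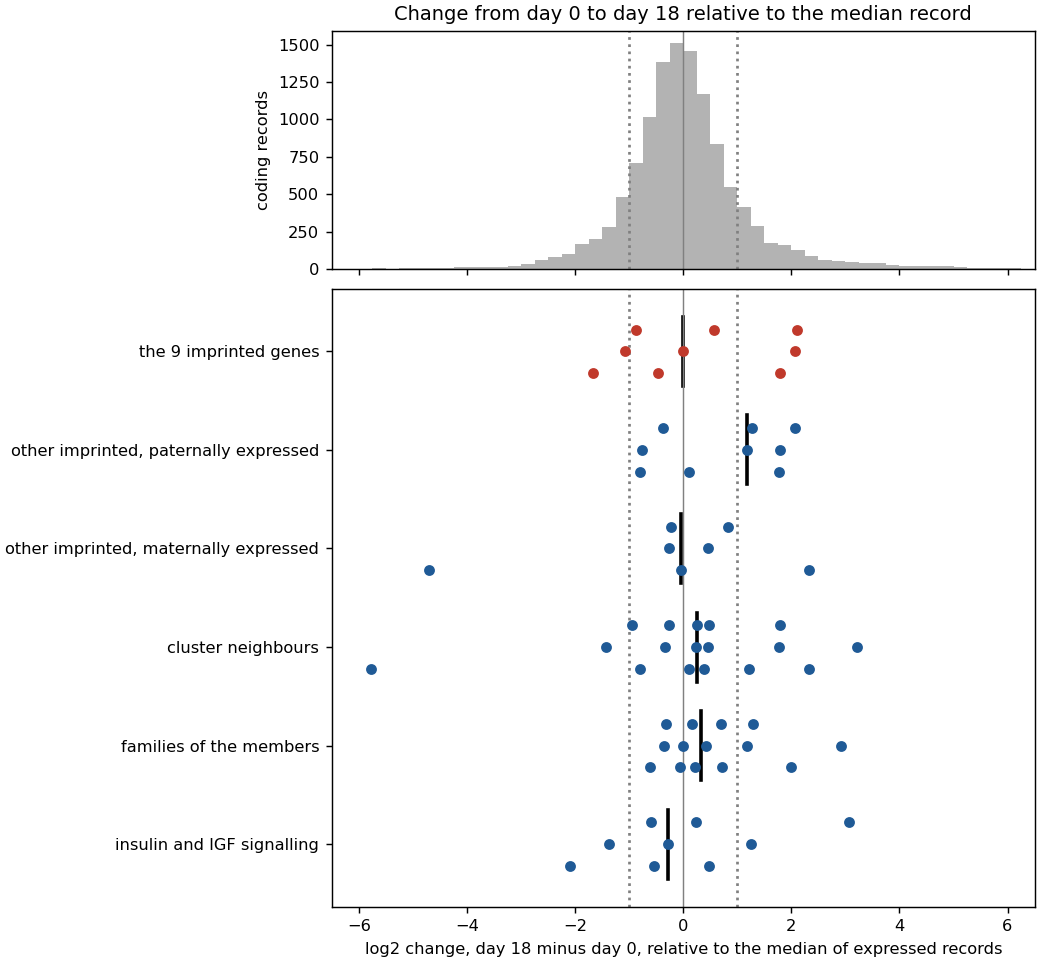
Change in log2(FPKM + 0.1) from day 0 to day 18 relative to the median record, as a histogram of coding records with a mean of at least 1 FPKM (upper panel, number of records in bins of 0.25) and as 1 point per record for the 9 genes (red) and 5 related lists (blue), with a black bar at each list's median and dotted lines at 2-fold. The 9 genes run from -1.66 to 2.11 about a median of -0.01, and the other paternally expressed genes, which include the PEG3 record under ZIM2, have a median of 1.18.

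The makeup of the cultures moved over the same days. Of 12 neuron markers, 9 were at least 2-fold higher at day 18 and none 2-fold lower relative to the median. As deposited 9 were higher and 1 lower (NEFL, -1.17). Their summed level was 701 FPKM at day 0, 473 at day 1 and 1577 at day 18, of which STMN2 made 727 at day 18. All 10 cell cycle genes were at least 2-fold lower on both scales (summed level 885 and 173 FPKM). Of the 8 mesenchymal markers with a mean of at least 1 FPKM, 6 were at least 2-fold lower (7 as deposited). The 10 listed summed to 678 and 60.2 FPKM, with COL1A1 listed at 0 on every day. Of 10 neural progenitor markers, 3 were 2-fold higher and 1 lower (3 and 2 as deposited). Their sum was 3899 and 2112 FPKM, most of it VIM (2948 and 1493 FPKM), beside 413978 and 251156 FPKM over all records. Of 8 astrocyte and oligodendrocyte markers 2 had a mean of at least 1 FPKM, the sum was 16.7 and 22.0 FPKM, and GFAP, OLIG1 and OLIG2 stood at 0.196 FPKM or less on every day. Of 6 pluripotency markers only DPPA4 had a mean of at least 1 FPKM (9.72 and 2.25 FPKM), and NANOG stood at 0.0207 or less. Between days 0 and 18 the mesenchymal and cell cycle sums were thus lower, as were MEST and PLAGL1. The neuron sum was higher, as were NNAT, MAGEL2 and PEG3. The steps differed: at day 1 PLAGL1 rose from 29.2 to 43.0 FPKM while the cell cycle sum fell from 885 to 509. MAGEL2 rose from 2.64 to 3.19 FPKM at day 1 while the neuron sum fell. The part of these markers in the differences of the 9 genes was not tested. In bulk RNA, fewer cells of a type and less RNA per cell cannot be told apart.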

How the data were processed

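Polyadenylated RNA was sequenced with the TruSeq RNA-Seq kit. The authors ran TopHat2 on hg19, then Cufflinks for assembly, and obtained FPKM from Cuffdiff2 (versions not given in the sources used here). The deposited FPKM values are 1 per gene record and day, so 0 columns held single samples, and depth is unknown. The authors' columns comparing the 6 pairs of adjacent days (status, values, fold changes, test statistics, p- and q-values, significance) were not used.

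Groups followed the sample titles. Changes were differences of log2(FPKM + 0.1) minus the median over records with a mean of at least 1 FPKM, counted at 2-fold, with no test. Calculations used Python 3.11.15, numpy 2.4.6 and pandas 2.3.3, and the counting was checked on simulated data. The genes named were the 9 members, all cluster neighbours with a mean of at least 1 FPKM, the 2 highest and 2 lowest changes in the imprinted, family and insulin/IGF lists (marker lists are given by counts and sums), and the 3 genes closest in pattern to each member (span of at least 1), of which some are not reported here. MEG3, RTL1, IGF2, H19, ATP10A, CPA4, BLCAP's overlap and single cell type markers were named after their values were seen. Members and lists were chosen with earlier results of these data known. Of 138 list symbols, all looked up among coding records only, 2 were matched by an older symbol and 1 had no coding record. Alternatives were other centrings, pseudocounts, filters and thresholds.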

Additional observations from a re-analysis of the deposited data

How the results depend on the processing

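Under every alternative run (54 values) the change from day 0 to day 18 stayed within 1.5-fold of its main value for all 9 genes. Another centring or scaling moves all genes by about the same amount, so this agreement was largely fixed beforehand. Without centring that amount was 0.56, which took NDN from 0.57 to 0.01, DLK1 from -0.01 to -0.57 and GRB10 from -0.47 to -1.03. All genes but DLK1 kept their sign. DLK1, which lay at the median, was at 0.15 with centring on coding records with a mean of at least 10 FPKM. With each day scaled to a fixed total it was at 0.14. The number of genes at least 2-fold lower was 2 (MEST and PLAGL1), 4 in the values as deposited (PEG10 and GRB10 added), and 1 (MEST) both with centring on coding records with a mean of at least 10 FPKM and with each day scaled to one fixed total, where PLAGL1 was at -0.92 and -0.93. At a threshold of 4-fold, 2 genes of the 5 were counted in all (NNAT and MAGEL2) and 0 were lower. The 3 higher genes were counted under every centring and scaling. The counts per step between adjacent days were equal under the alternatives run for them.

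No paired analysis was possible because the deposited table holds 1 value per day and no value of a single sample. No culture was left out in turn, and there is no spread, interval or test, for want of such values, so differences between days cannot be told from differences between cultures. Depth, which sets the precision of low values such as those of MEG3 and the antisense records, is unknown.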
